A study of Mus musculus with 4 samples.

Results

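The proneural basic helix-loop-helix (bHLH) genes Neurog1, Neurog2, Neurog3, Neurod1, Neurod2, Neurod4, Neurod6, Atoh1 and Ptf1a were compared between PSC-derived SG placodes and submandibular glands (SMGs) of the mouse embryo. The members were chosen by symbol, and all 9 were present among 22036 Ensembl genes with an expression value. Expression is given as FPKM, the fragments of a gene scaled to its transcript length and to all mapped fragments, so levels can be set side by side between genes. In each placode sample 5 members reached 1 FPKM, led by Neurog1, and every member was below 0.1 FPKM in each SMG sample.

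Total RNA was sequenced from 2 samples of SG placodes and 2 samples of SMGs. The placodes, called induced embryonic salivary glands in the sample labels, came from 1 line of mouse embryonic stem cells and were collected on day 10 of culture. Aggregates of 3000 cells per well were grown in medium with 2% Matrigel, with BMP4 (2 ng/ml) on day 3, bFGF (25 ng/ml) and retinoic acid (RA, 1 μM) on day 4, and FGF10 (200 ng/ml) from day 6. The SMGs came from E12.5 embryos, whose strain and dissection are not stated in the sources used here. Nothing says whether the 2 samples of a group were separate differentiations or litters, so the p-values measure the spread between these samples only, which may be technical. No untreated aggregates and no undifferentiated cells were part of the data, so the effect of any single factor cannot be told apart from the others. Culture and embryo were also 2 separate sources of tissue, and a batch of library preparation, if there was one, cannot be told apart from the groups.

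Proneural factors are bHLH transcription factors that commit progenitor cells to a neuronal fate. They bind DNA at E-boxes as dimers with the widely expressed E proteins, they induce Delta ligands that activate Notch in neighboring cells, and Notch in turn switches on Hes repressors that hold those neighbors as progenitors. The Neurog genes and Atoh1 act early, in dividing progenitors, and start cascades in which the Neurod genes act later, during neuronal differentiation. Several members also work outside the nervous system, such as Neurog3 in endocrine progenitors of the pancreas and gut, Ptf1a in the exocrine pancreas and Atoh1 in secretory cells of the intestine.

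The members are close relatives, and the part of their coding sequence that gives the DNA-contacting basic region shows this best. The longest run of identical bases between any 2 member transcripts, 26 bases in GENCODE M21, lay there and was shared by Neurog1 and Neurog2. The best matching stretch in the same reading frame of each member is given 5′ to 3′ because it shows how closely each member matches this run. Whether reads were assigned to the wrong member was not tested. Capitals mark bases that differ from Neurog1.
Neurog1: cgcgagcgcaaccgcatgcacaacct
Neurog2: cgcgagcgcaaccgcatgcacaacct
Neurog3: cgGgagcgcaaTcgcatgcacaacct
Neurod1: cgcgagcgGaaccgcatgcacGGGct
Neurod2: cgGgagcgcaaccgcatgcacGacct
Neurod4: AgAgaAcgGaCccgGatgcaTGGcct
Neurod6: cgcgagAgGaaccgGatgcacGGcct
Atoh1: AgGgaAcgGCGcAgGatgcacGGGct
Ptf1a: cgAgagcgGCGccgcatgcaGTCcAt
Neurog3 and Neurod2 differed from Neurog1 at 2 of these 26 bases, Neurod1 at 4, Neurod6 at 5, Ptf1a at 8, Neurod4 at 9 and Atoh1 at 11. For Atoh1 another window matched at as many bases, 15, so its stretch is not unique. Across the 36 pairs of members, the longest shared run reached 20 bases or more in 2 pairs, Neurog1 with Neurog2 and Neurod1 (25 bases) with Neurod2. In the next pair the run was 18 bases.

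All 9 members are compact genes, and in 8 the coding sequence lies in 1 exon, with Ptf1a as the exception. Neurog1 (ENSMUSG00000048904) lies on chromosome 13 of GRCm38 from 56250478 to 56252163, and Neurog2 (ENSMUSG00000027967) on chromosome 3 from 127633135 to 127635631. Neurod4 (ENSMUSG00000048015) lies on chromosome 10 from 130268152 to 130280240, and Neurod1 (ENSMUSG00000034701) on chromosome 2 from 79452521 to 79456751. In the annotation, 6 members overlap no other gene. Neurog3 shares 273 of its 1674 exonic bases with Fam241b on the opposite strand, Neurod1 shares 201 of 2729 with Cerkl on its own strand and 154 with a gene on the other strand, and Ptf1a shares 609 of 1508 with an antisense transcript. The strandedness of the libraries is not given in the sources used here, so reads of these shared parts cannot be assigned with certainty.

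The deposited values covered 24771 features, and their FPKM summed to between 361963 and 384773 per sample. Depth is unknown because FPKM keeps no read counts, so no detection floor is given and an FPKM of 0 means only that the gene was listed at 0. The labelled tissue was checked against marker genes. Of 9 salivary epithelium markers, all 9 reached 1 FPKM in each SMG sample and 5 did so in each placode sample, where Krt5, Krt14 and Krt15 were listed at 0. By limma, 6 of the 9 were lower in the placodes, 1 was higher and 2 were not called, where 40.4% of all tested features were lower. Cdh1 was at 1.11 and 1.18 in the placodes against 28.2 and 24.7 in the SMGs, and Epcam at 1.75 and 2.69 against 87.2 and 78.8. Pitx1 was at 0.539 and 0.429 against 245 and 253. In the same list Krt8 and Krt18, keratins of simple epithelia, were not called (limma adjusted p = 0.322 and 0.0541). Sox9, which also marks neural and cartilage progenitors, was higher in the placodes, at 42.1 and 43.0 against 9.31 and 7.66 (adjusted p = 3.66e-06). All 6 neuron markers were higher in the placodes, with a summed FPKM of 840 and 869 against 84.1 and 75.6 in the SMGs. All 5 neural progenitor markers were also higher, with a sum of 577 and 608 against 51.0 and 45.2. Higher calls made up 35.7% of all tested features. Markers of other tissues were lower in the placodes, with summed FPKM of 152 and 149 against 1244 and 1210 for 5 mesenchyme markers, 9.66 and 9.08 against 81.0 and 87.3 for 3 endothelial markers, and 0.0258 and 0.131 against 2155 and 2060 for 3 erythroid markers. In bulk samples fewer cells of a type and less RNA per cell cannot be told apart, and the part of these cells in the member levels was not tested.

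Neurog1, which drives the formation of sensory neurons in cranial and spinal ganglia and of interneurons in the neural tube, was the most abundant member. Its FPKM was 41.5 and 45.7 in placodes 1 and 2, and it was listed at 0 in each SMG sample. No fold change is given against a group at 0. In the fit across all features, limma on log2(FPKM + 1), its adjusted p was 1.99e-07. In the placodes Neurog1 stood at the 92.3rd and 93.2nd percentile of all Ensembl genes.

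Neurog2, a partner of Neurog1 in many of the same progenitor domains and a driver of motor neurons and cortical neurons, was next to Neurod4 in level. Its FPKM was 12.98 and 13.4 in placodes 1 and 2, and 0.0932 and 0.0626 in SMGs 1 and 2. On the log2(FPKM + 1) scale this was a log2 fold change of 3.72 (standard error 0.10, limma adjusted p = 6.62e-07). The pseudocount of 1 compresses differences of genes near 0, and with a pseudocount of 0.01 the log2 fold change of Neurog2 was 7.25. The samples of a group were close together, with a log2 difference of 0.05 between the placode samples, below the median of 0.083 over all tested features.

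Neurog3, the neurogenin known best from endocrine progenitors and also present in parts of the neural tube, was far lower than its relatives. Its FPKM was 1.31 and 1.28 in placodes 1 and 2, and it was listed at 0 in each SMG sample. The groups did not overlap, yet its mean over the 4 samples was below the minimum of 1 FPKM for the fit. Without that minimum its limma adjusted p was 0.00146. Fam241b, which overlaps Neurog3 on the other strand, had an FPKM of 10.1 and 9.78 in the placodes and 3.00 and 3.63 in the SMGs, and the part of its reads in the Neurog3 value was not tested. Of the pancreatic genes listed beside it, Pdx1, Ins1, Ins2, Gcg and Prss1, named after their values were seen, were at 0 in all 4 samples.

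The Neurod genes, which act downstream of neurogenins during neuronal differentiation, split into a pair with clear levels and a pair near the bottom. Neurod4, found in the retina, hindbrain and spinal cord, had an FPKM of 12.2 and 14.5 in placodes 1 and 2, and 0.0190 and 0 in SMGs 1 and 2. Its log2 fold change was 3.83 (standard error 0.12, limma adjusted p = 1.13e-06) and 9.61 with a pseudocount of 0.01. Its samples differed more from each other than those of Neurog2, by 0.23 on the log2 scale between the placode samples.

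Neurod1, a differentiation factor of sensory and cerebellar neurons and of pancreatic islets, had an FPKM of 7.12 and 7.31 in placodes 1 and 2, and 0.0230 and 0 in SMGs 1 and 2. Its log2 fold change was 3.02 (standard error 0.10, limma adjusted p = 1.73e-06) and 8.63 with a pseudocount of 0.01. Cerkl, which shares exonic bases with Neurod1, was at 0.248 and 0.301 in the placodes and at 0.613 and 0.397 in the SMGs. The gene that overlaps Neurod1 on the other strand had no expression value. The part of the reads of either gene in the Neurod1 value was not tested.

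Neurod2 and Neurod6, both best known from maturing neurons of the cerebral cortex and hippocampus, were below an FPKM of 1 in every sample. Neurod2 was at 0.180 and 0.440 in placodes 1 and 2, and Neurod6 at 0.369 and 0.274. Both were listed at 0 in each SMG sample, so the groups did not overlap. Neither entered the fit. Without a minimum of mean FPKM, the limma adjusted p was 0.0174 for Neurod6 and 0.127 for Neurod2.

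Atoh1 and Ptf1a were at the bottom of the order. Atoh1, which specifies dorsal interneurons, cerebellar granule cells and hair cells, had an FPKM of 0.0291 and 0.0141 in placodes 1 and 2, and 0.0850 and 0.0123 in SMGs 1 and 2. Ptf1a, which specifies inhibitory interneurons of the dorsal spinal cord and cerebellum as well as pancreatic acinar cells, was at 0.0818 and 0 in placodes 1 and 2, and was listed at 0 in each SMG sample. For both genes the groups overlapped, and the exact permutation test, two-sided, gave a p of 1.0 for each. In a design of 2 samples against 2 this test cannot go below 0.333, the value it gave for the other 7 members.

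**Figure D1:**
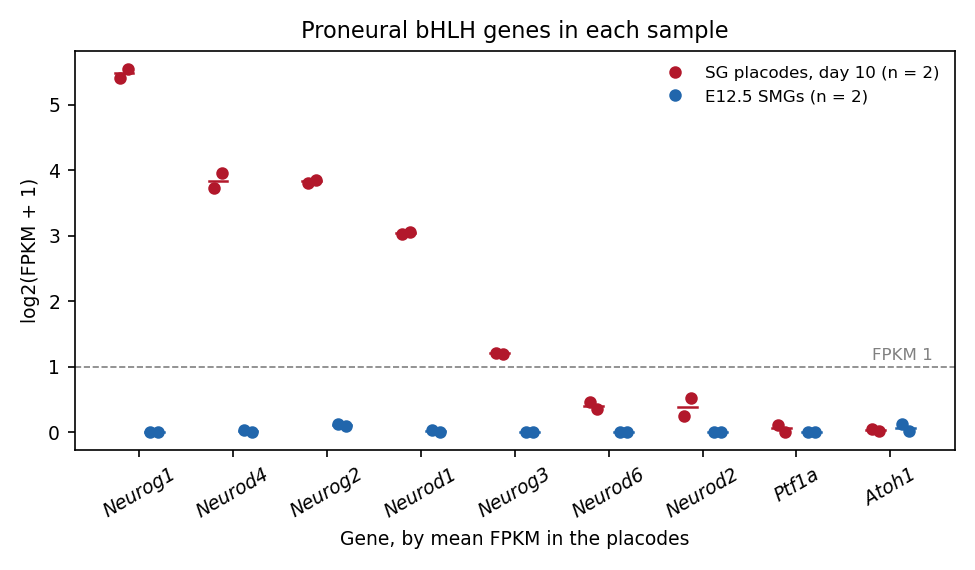
Level of each member in each sample, as log2(FPKM + 1), with genes ordered by their mean FPKM in the placodes. Red points are the 2 placode samples, blue points the 2 SMG samples, bars the mean of 2 samples, and the dashed line an FPKM of 1. Neurog1, Neurod4, Neurog2, Neurod1 and Neurog3 lie above the line in both placode samples, and all blue points lie near 0.

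By mean FPKM in the placodes the order was Neurog1, Neurod4, Neurog2, Neurod1, Neurog3, Neurod6, Neurod2, Ptf1a and Atoh1. Neurog1 was 3.26 times as high as Neurod4. Neurod4 and Neurog2 overlapped between samples, as did Neurod6 and Neurod2, and Ptf1a and Atoh1, so their order is not resolved. Neurog2 was 1.83 times as high as Neurod1, and Neurod1 5.56 times as high as Neurog3, with no overlap between the samples. Of the summed FPKM of the 9 members, Neurog1 held 54.7% and 55.1% in placodes 1 and 2, and the Neurod genes together held 26.2% and 27.2%. The sum itself was 75.7 and 82.9 in the placodes and 0.220 and 0.0749 in the SMGs.

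Counted over the members, 4 of 9 entered the fit and all 4 were called higher in the placodes by at least 2-fold. An adjusted p below 0.05 was reached by 76.2% of the 13193 tested features. Higher calls in the placodes made up 35.7% and lower calls 40.4%, and calls of at least 2-fold made up 14.1% and 15.2%. The 4 members passed the filter on mean FPKM through the placode samples alone, so their count carries no support of its own. The counts that use all 9 members need no such filter. The groups did not overlap and the placodes were higher for 7 of 9 members, against 29.6% of all features, and lower for 0 of 9, against 34.2%. A level of 1 FPKM in each sample of the group was reached by 5 of 9 members in the placodes, near the background of 50.1% of all features. In the SMGs it was reached by 0 of 9, against 50.5% of all features. Neurog1, Neurog3, Neurod2 and Neurod6, 4 of 9 members, were listed at 0 in each SMG sample and above 0 in both placode samples, as were 2.94% of all features.

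The DNA before the start sites of the 4 called members was read for E-boxes, the CANNTG letters that proneural dimers bind, since these genes were high together and several are known to act on each other. Sequences are RefSeq windows of GRCm38.p6, 5′ to 3′ on the strand of the gene, cut at the more upstream of the RefSeq and GENCODE starts, and capitals mark CANNTG. They lie at chr13:56252181-56252430 for Neurog1 on the minus strand, chr3:127632886-127633134 for Neurog2 on the plus strand, chr10:130280255-130280504 for Neurod4 on the minus strand and chr2:79456752-79456886 for Neurod1 on the minus strand.
Neurog1: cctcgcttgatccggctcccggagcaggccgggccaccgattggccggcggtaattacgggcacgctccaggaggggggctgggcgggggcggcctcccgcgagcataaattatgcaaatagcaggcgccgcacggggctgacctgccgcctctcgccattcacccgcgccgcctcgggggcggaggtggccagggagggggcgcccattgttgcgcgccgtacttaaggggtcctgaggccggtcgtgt
Neurog2: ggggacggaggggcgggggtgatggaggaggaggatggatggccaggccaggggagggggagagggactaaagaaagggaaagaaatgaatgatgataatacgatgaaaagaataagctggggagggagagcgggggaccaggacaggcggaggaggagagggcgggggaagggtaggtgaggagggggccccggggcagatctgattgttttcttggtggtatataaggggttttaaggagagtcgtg
Neurod4: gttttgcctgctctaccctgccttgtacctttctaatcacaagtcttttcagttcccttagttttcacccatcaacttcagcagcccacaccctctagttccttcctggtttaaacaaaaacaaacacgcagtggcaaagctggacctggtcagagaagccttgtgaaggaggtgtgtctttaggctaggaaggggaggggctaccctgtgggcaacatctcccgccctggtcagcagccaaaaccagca
Neurod1: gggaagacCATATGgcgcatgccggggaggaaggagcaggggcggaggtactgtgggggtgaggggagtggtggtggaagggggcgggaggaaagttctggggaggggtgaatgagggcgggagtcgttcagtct
No CANNTG was found in the windows of Neurog1, Neurog2 and Neurod4, and 1 was found in that of Neurod1. In the full 250 bases before the RefSeq start, 66.2% of 32851 promoters held at least 1 such site, with a median of 1. Among the other members Neurod2 held 3, Neurod6 held 2, Neurog3 held 1, and Atoh1 and Ptf1a held 0. The variants CAGATG and CAGCTG, read on both strands and contained in CANNTG, were present in 4745 and 4271 of the promoters, and among the members in Neurod2 and Neurog3 respectively. The letters CACNAG, read on both strands and bound by Hes factors, occurred 2 times before the first start of Neurod4 and 3 times before Neurod6, and in 36.7% of promoters. TGGGAA, read on both strands and bound by the Notch effector Rbpj, occurred before Ptf1a alone among the members and in 21.6% of promoters. Base composition was read over the full 250 bases before the RefSeq start and not over the cut windows, of which that of Neurod1 holds 135 bases. The GC content was 71.2% for Neurog1, 67.6% for Neurod1, 58.0% for Neurog2 and 51.2% for the first start of Neurod4, against a median of 52.4% over all promoters. A match describes letters in a short window and not a bound site.

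Other neural bHLH genes were also higher in the placodes. Of 11 listed genes, 6 were tested and all 6 were higher, where 35.7% of all tested features were higher. The groups did not overlap and the placodes were higher for 10 of 11, against 29.6% of all features. As with the members, most of the tested genes passed the filter through the placodes alone. Markers of the parasympathetic ganglion and its Schwann precursors, the neural tissue that accompanies the SMG, had a summed FPKM of 73.4 and 68.4 in SMGs 1 and 2, and 31.1 and 27.6 in placodes 1 and 2. Of these 7 markers, all 7 reached 1 FPKM in each SMG sample and 6 in each placode sample. By limma 4 were lower in the placodes, 1 was higher and 2 were not called, where 40.4% of all tested features were lower. Hand2 (19.8 and 18.5) and Sox10 (19.1 and 16.7) were large parts of the sum in SMGs 1 and 2. Ret was the higher gene, at 13.1 and 12.7 in the placodes against 7.31 and 7.15, and Phox2a and Foxd3 were not called. Their part in the levels of neural bHLH genes was not tested.

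Nhlh1 and Nhlh2, bHLH factors of newly formed neurons, were also among the abundant bHLH genes of the placodes. Nhlh2 had an FPKM of 85.01 and 89.4 in placodes 1 and 2, and was listed at 0 in each SMG sample (limma adjusted p = 9.06e-08). Nhlh1 was at 32.3 and 31.6 against 0.0647 and 0.0212, a log2 fold change of 4.98 (standard error 0.09). Neither gene overlapped between the groups. Bhlhe23 was lower, at 2.28 and 1.97 against 0 in both SMG samples. Bhlhe22, Olig2 and Olig3, named after their values were seen, are regulators of interneurons, motor neurons and dorsal progenitors. Bhlhe22 was at 52.4 and 50.6 in the placodes and at 1.30 and 1.44 in the SMGs. Olig3 was at 3.99 and 3.24 and Olig2 at 1.13 and 1.96 in the placodes, and neither exceeded 0.0792 in the SMGs.

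The partners of the members were not limited to the placodes. The E proteins Tcf3, Tcf4 and Tcf12, which dimerize with all proneural factors, had an FPKM of 38.2 or more in all 4 samples. Tcf3 was lower in the placodes, at 87.5 and 87.4 against 143 and 144.1, a log2 fold change of -0.71 (standard error 0.04, limma adjusted p = 2.02e-05). Tcf12 (0.05, adjusted p = 0.344) and Tcf4 (-0.03, adjusted p = 0.840) were not called by limma, and the sign of Tcf12 changed with quantile normalization and that of Tcf4 with TPM or median-ratio scaling. The Id proteins, which lack a basic region and sequester E proteins, were also present in both groups. Id4 was higher in the placodes at 21.1 and 20.9 against 2.28 and 2.19, and Id2 at 88.1 and 62.6 against 27.996 and 30.4. Id3 rose by 0.62 and Id1 fell by 0.30 on the log2 scale (limma adjusted p = 0.000820 and 0.00283).

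Notch ligands moved in both directions. Dll1, a direct target of neurogenins, had an FPKM of 58.2 and 57.1 in placodes 1 and 2, and 2.27 and 2.07 in SMGs 1 and 2, a log2 fold change of 4.21 (standard error 0.07, limma adjusted p = 1.94e-07). Dll3, which acts inside the same cells, was at 39.0 and 37.9 against 3.05 and 2.61. The ligands known more from vessels and epithelia went the other way or moved little. Dll4 fell by 1.03 and Jag2 fell by 0.49 on the log2 scale, and Jag1 rose by 0.39 (limma adjusted p = 0.000421, 0.000463 and 0.00683). The call of Jag1 was lost without placode sample 2 (adjusted p = 0.0662) or without SMG sample 1 (adjusted p = 0.0575).

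Among the Hes and Hey genes, only some of which are repressors that Notch induces, Hes5 stood apart. Its FPKM was 122 and 124 in placodes 1 and 2, and 0.0343 and 0.193 in SMGs 1 and 2. Hes3, a repressor of neural progenitors, was at 1.48 and 3.44 against 0 in both SMG samples (limma adjusted p = 0.00125, and 0.0561 without a minimum of mean FPKM). Hes1, which is active in many tissues, was lower in the placodes, at 13.9 and 15.2 against 21.6 and 20.1, and Heyl was at 0.872 and 1.07 against 3.56 and 3.76. Of 9 listed genes, 6 were tested, 4 of them higher and 2 lower, with a median log2 fold change of 1.16 where that of all tested features was -0.05. The higher genes were Hes3, Hes5, Hes6 and Hey1, and Hes6 is also listed below as downstream of proneural factors. Over all tested features 35.7% were higher and 40.4% lower. Whether Notch activity differed between the groups was not tested.

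**Figure D2:**
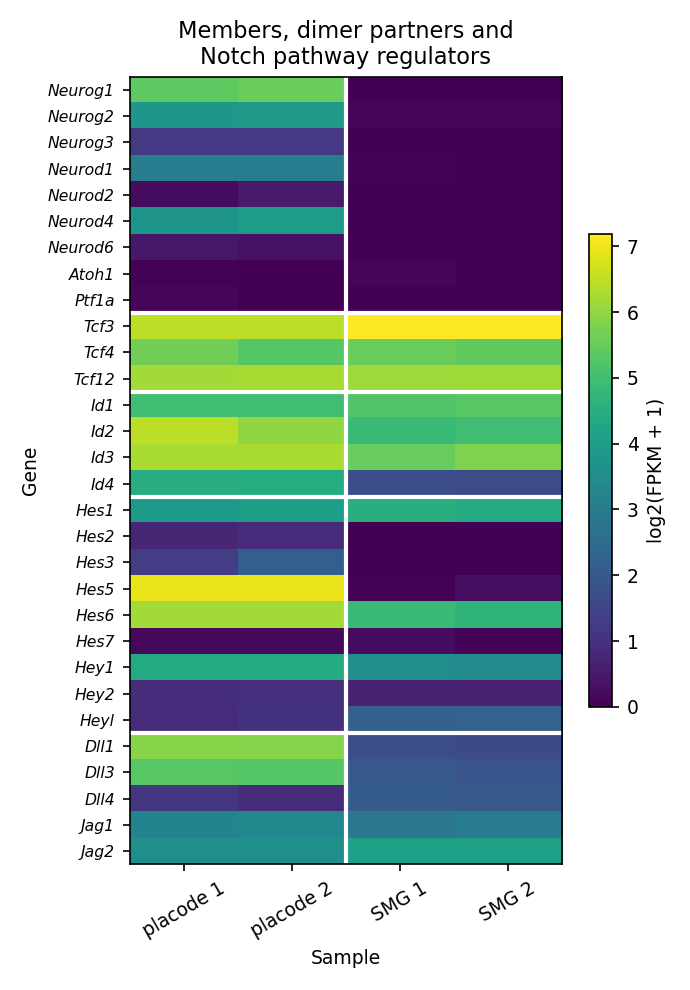
Level of the members, the E proteins, the Id genes, the Hes and Hey genes and the Notch ligands in the 2 placode and 2 SMG samples, as log2(FPKM + 1) on a color scale from 0 upwards, with white lines between the gene groups and between the sample groups. The E proteins are bright in all 4 columns, and the members, Hes5 and Dll1 are bright or mid-range in the placode columns and dark in the SMG columns, except Neurog3, which is dim in the placode columns, and Atoh1, Ptf1a, Neurod2 and Neurod6, which are dark throughout.

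Genes known to lie downstream of proneural factors were mostly higher in the placodes. Of 15 listed genes, 13 were tested, 10 were higher and 1 was lower, with a median log2 fold change of 2.59. Over all tested features 35.7% were higher and 40.4% lower. Cbfa2t2 and Cbfa2t3 were not called (limma adjusted p = 0.11 and 0.508). Eomes and Tbr1 were not tested and did not exceed 0.218 FPKM in any sample. Dll1, Dll3, Hes6 and Nhlh1 are in this list as well as in those above, so the counts are not separate. Insm1, Rnd2, Btg2, Gadd45g and Myt1, named after their values were seen, are known regulators of cell cycle exit, migration and neuronal fate. Insm1 was at 23.4 and 23.5 in the placodes and at 3.00 and 3.11 in the SMGs, and Rnd2 at 104 and 101 against 12.96 and 16.9. Myt1 had a log2 fold change of 4.10, Btg2 of 2.98 and Gadd45g of 2.44. Unlike the members, each of these 5 genes exceeded 1 FPKM in each SMG sample. Ebf3, which also has roles outside neurons, was lower in the placodes, at 28.1 and 29.9 against 45.7 and 41.1, and Ebf2 was slightly higher (log2 fold change 0.39, limma adjusted p = 0.00322).

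The 2 members at the bottom of the order were set beside genes of the neurons they specify. For Atoh1, all 4 listed genes were low, since Lhx2, Lhx9, Barhl1 and Barhl2 had an FPKM below 1 in every sample and none was tested. Lhx2 was the highest, at 0.650 and 0.798 in the placodes and 0.219 and 0.0876 in the SMGs. For Ptf1a, all 6 listed genes of inhibitory interneurons were higher in the placodes, where Ptf1a itself did not exceed 0.0818. Over all tested features 35.7% were higher. As with the members, these 6 genes passed the filter on mean FPKM through the placodes alone, so their count carries no support of its own. Lhx1 was at 99.95 and 104.8 against 0.0262 and 0.0136, and Lhx5 at 59.8 and 59.1 against 0.0168 and 0. Gad1 and Gad2, which make GABA, were at 18.3 and 19.2 and at 12.8 and 14.01 in the placodes and did not exceed 0.0355 in the SMGs. These genes are also used by interneurons that form without Ptf1a, and Lhx1 and Pax2 also act in the developing kidney.

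Genes of sensory neurons, the classical output of Neurog1, were mixed. The background was 35.7% of all tested features called higher and 40.4% called lower. Of 8 listed and tested genes, 4 were higher, 2 were lower and 2 were not called, with a median log2 fold change of 0.20. Without placode sample 1 the number of lower genes was 1. Pou4f1, a regulator of sensory neurons and of some central neurons, was at 7.41 and 6.97 in the placodes against 0.0512 and 0.0230, and Prph, a neurofilament of peripheral neurons, at 7.14 and 5.43 against 1.46 and 1.02. 

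The bHLH genes of other tissues moved in both directions, more often lower in the placodes. Over all 20 listed genes, the groups did not overlap with lower placode values for 11 and with higher ones for 4. The shares of all features were 34.2% and 29.6%. Of the 10 tested, 8 were lower in the placodes and 1 was higher, with a median log2 fold change of -1.70. Lower calls made up 40.4% of all tested features and higher calls 35.7%. Without a minimum of mean FPKM, 8 of the listed genes were lower and 3 higher. Some of the tested genes, Hand2 and Myog among them, passed the filter through the SMGs alone. Myog, a factor of skeletal muscle, was listed at 0 in each placode sample and was at 28.3 and 21.2 in SMGs 1 and 2. Hand2, a factor of branchial arch mesenchyme and autonomic neurons, was at 0.0631 and 0.268 against 19.8 and 18.5. Hand1, a factor of heart and extraembryonic tissue, was higher in the placodes, at 2.67 and 3.82 against 0.412 and 0.0275. Scx, a tendon factor, was lower by 0.51 on the log2 scale (limma adjusted p = 0.0353), and this call was lost without placode sample 1 (adjusted p = 0.135), without placode sample 2 (adjusted p = 0.243), without SMG sample 1 (adjusted p = 0.155) and without a minimum of mean FPKM (adjusted p = 0.219).

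**Figure D3:**
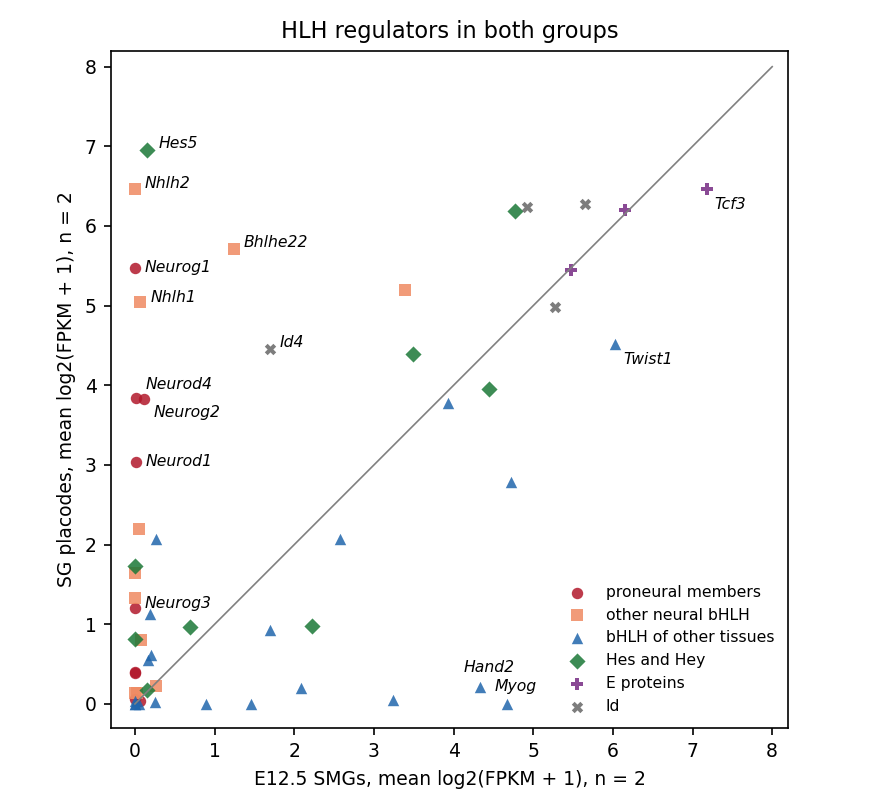
Mean log2(FPKM + 1) of 2 SMG samples (horizontal axis) against that of 2 placode samples (vertical axis) for the listed bHLH and Id genes, with colors and shapes for the lists and a line of equal level. Neurog1, Neurog2, Neurod1, Neurod4, Nhlh1, Nhlh2 and Hes5 stand along the left edge, the E proteins lie towards the right, and Hand2 and Myog lie along the lower edge.

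**Figure D4:**
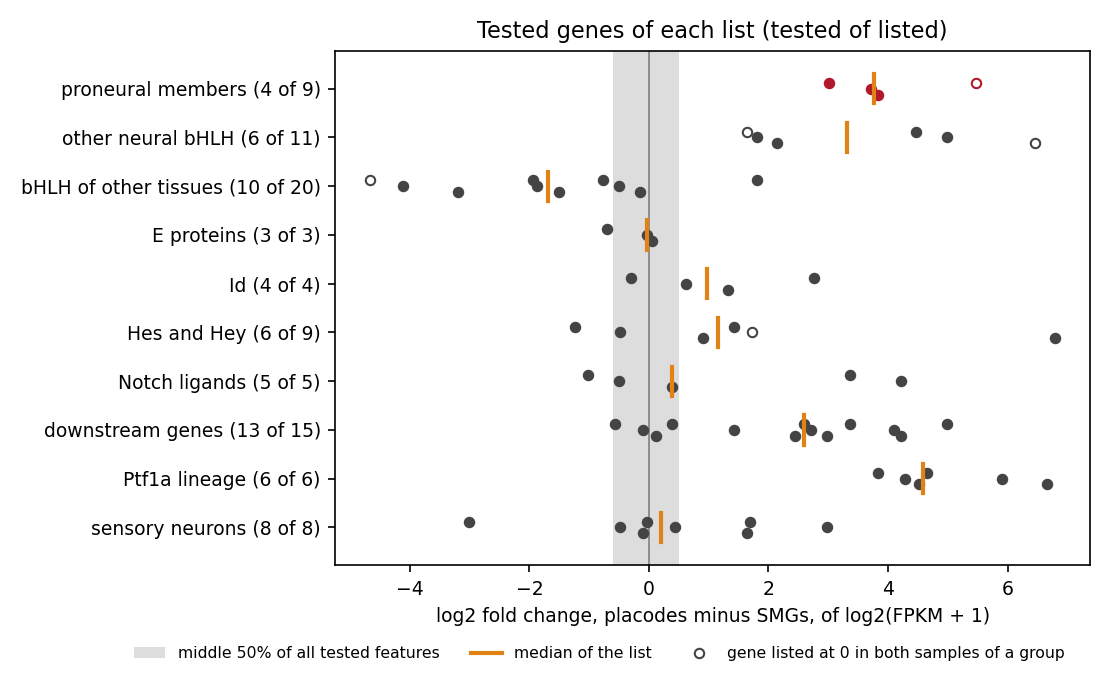
Log2 fold change of each tested gene, placodes minus SMGs on the log2(FPKM + 1) scale, by list, with the tested and listed numbers in brackets. Orange bars are list medians, the grey band holds the middle 50% of all tested features, and open circles are genes listed at 0 in both samples of a group, such as Neurog1, whose position depends on the pseudocount. Medians include these genes. The tested members lie to the right of the band, the E proteins lie in or beside it, and the bHLH genes of other tissues lie mostly to its left.

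The genes nearest to the 3 highest members were sought by Euclidean distance of log2(FPKM + 1) over the 4 samples. For Neurog1 they were Pax8 (distance 0.139), Pou3f3 (0.162) and Hoxa6 (0.167). Pax8 was at 42.1 and 41.4 in the placodes and was listed at 0 in each SMG sample. For Neurod4 they were Gad2 (0.0769), Neurog2 (0.188) and Nrxn3 (0.201), and for Neurog2 they were Gad2 (0.147), Nrxn3 (0.150) and Eef1a2 (0.167). With 4 samples in 2 groups this measure finds genes of equal level and contrast, and Neurog2 and Neurod4 were in this sense each close to Gad2.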

How the data were processed

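RNA-seq of SG placodes grown from PSCs until day 10 (n = 2) and of E12.5 SMGs (n = 2) was analyzed, with groups from the sample titles. The authors mapped paired-end reads with HISAT2 and deposited FPKM per gene and sample. The submitters' processing notes name GRCm38 and also GRCh38. The HISAT2 version, annotation and FPKM program are not given in the sources used here. Raw reads were not reprocessed, and depth is unknown.

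Values of log2(FPKM + 1) entered a limma fit (version 3.58.1, R 4.3.3, two-sided) with group alone as the term and a trended eBayes step. A mean FPKM of 1 over all samples was the minimum for entry, with Benjamini-Hochberg adjustment over 13193 features, of which 479 were assembled loci. An adjusted p below 0.05 was called. Gene positions, exons and transcripts came from GENCODE M21 and promoter windows from RefSeq (GRCm38.p6), in which all 9 members were found. Proteins were not used here. The procedure was tested on simulated data. Figures were drawn with Python 3.11.15.

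The members and lists were chosen with earlier results of these data known. Genes named were the members, all genes of lists of at most 5, the 2 highest and 2 lowest called genes of longer lists, and the 3 genes nearest to each of the 3 highest members. A few genes that this rule also names are not reported here. Other genes, overlapping genes and tissue markers included, were named after their values were seen. Alternatives were a pseudocount of 0.1 or 0.01, 3 other scalings, no minimum or a minimum of 5 FPKM, blocking on the replicate number, an untrended or a robust eBayes step, detection at 0.1 or 5 FPKM, and each sample left out.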

Additional observations from a re-analysis of the deposited data

How the results depend on the processing

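The 4 called members kept their direction and their side of the threshold under every alternative in which they entered the fit, with adjusted p-values of at most 0.00274. Under the 14 alternatives, 3 to 6 members were called higher and 0 lower, with 3 at a minimum of 5 FPKM, which removes Neurod1, and 6 without a minimum, which adds Neurog3 and Neurod6. The number was 4 with each sample left out in turn. Where a group was left with 1 sample, that sample was assumed to vary like the others. Every member was below 0.1 FPKM in each SMG sample, so with a minimum members could enter the fit only through the placodes. The count of 0 lower under these settings therefore carries no support of its own. Among all called features, 46.1% were higher without a minimum and 48.2% at a minimum of 5 FPKM. A detection level of 0.1 FPKM left 7 members detected in the placodes and a level of 5 FPKM left 4, with 0 in the SMGs at both. All features called numbered 7460 to 10232, and the listed genes called 36 to 58. With the replicate number as a block 10043 features were called and the 4 members remained called. Same-numbered samples of the 2 groups share only a number, with a correlation of their deviations of r = -0.035 across 13193 features, and the block changed no other call among the named genes. Of the other named genes, the uncalled Tcf4 changed sign to 0.034 with TPM scaling and 0.023 with median-ratio scaling, and ranged from -0.19 to 0.14 with single samples left out, positive without placode sample 2 (0.14) or SMG sample 1 (0.037). Tcf12 changed sign to -0.0070 with quantile normalization. Calls of Hes3, Jag1 and Scx were lost under some alternatives, as given with their values above. Depth is unknown, so the precision of levels near 0, as for Atoh1 and Ptf1a, is not known.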
